A study of Mus musculus with 2 samples.

Results

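The expression of 31 genes of glycolysis and the hypoxia response was measured cell type by cell type in immune cells of mouse tumours with and without photobiomodulation. The genes were taken from a list of names that was drawn up with earlier results of these data known, and they are 31 of the 27188 gene symbols in the deposited feature lists. All 31 had unique molecular identifiers (UMIs, each marking 1 captured RNA molecule) in both libraries. Of these, 18 act in glucose uptake, glycolysis and lactate export, and 13 are the oxygen-regulated factor Hif1a and genes known to respond to low oxygen.

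The treated cells were 1 library labelled PBM, from wild-type C57BL/6 mice that bore tumours grown under the skin from MC38 cells, a colon carcinoma line of mice, and were given photobiomodulation, a treatment with light, every day from day 7. The control was 1 library from wild-type C57BL/6 mice with the same tumours. In both, tumours were taken on day 14, CD45-positive cells were sorted, cells of a condition were pooled, and a 10x Genomics 3′ single-cell library was sequenced; the number of mice per pool is not stated in the labels. A single library stands for each condition and gives no spread between replicates, so no test was made. Each interval below is a 95% interval for counting error only, and treatment, pool and library cannot be told apart.

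The PBM library held 13962 cell barcodes and 86159897 UMIs, and the control library 11238 barcodes and 104673228 UMIs; 13062 PBM and 11099 control cells were kept. The median per kept cell was 5022.5 UMIs in the PBM library and 5588 UMIs in the control library. The labels give the cell type as tumour cells, whereas the clusters carried immune markers, apart from a cluster led by Sparc and Col1a2 with 7 PBM and 1212 control cells, in which Ptprc, the gene of CD45, stood at 28.6 UMIs per 1000000 UMIs (CPM) in the control library, against 213 CPM in the monocyte/macrophage-like cells of that library. T-like cells numbered 6922 in the PBM library and 2601 in the control library, B-like cells 5590 and 206, NK-like cells 198 and 1344, and monocyte/macrophage-like cells 168 and 5101. Among T-like cells, gates on Cd8a, Cd8b1, Cd4, Pdcd1 and naive markers gave 3488 PBM and 232 control naive-like CD8 T cells, 51 and 603 Pdcd1-positive CD8 T cells, and 1093 and 549 CD4 T cells.

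Glycolysis splits glucose to pyruvate in the cytosol, and cells that make lactate from pyruvate export it through monocarboxylate transporters. When oxygen is low, the prolyl hydroxylases that mark HIF-1 alpha for degradation lose activity, and the stabilised factor, bound to its partner ARNT, switches on genes for glucose uptake, glycolysis, mitophagy, angiogenesis and its own hydroxylases. Activated T cells and inflammatory macrophages are known to use much glycolysis even with oxygen, whereas resting lymphocytes use little.

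The factor binds DNA at short cores, ACGTG or GCGTG. Both were searched on both strands in the 250 bases before each RefSeq start (build GRCm38.p6); a CACGTG counts once per strand. A match was present before at least 1 start in 26 of the 28 genes that had an entry (92.9%), against 41.5% of all 27025 genes of the table, and in 32 of their 42 windows (76.2%), against 38.6% of all 32851 windows. Tpi1 and Gpi1 had none. Slc2a3, Bnip3l and Ndrg1 were not in the table. A match is a run of letters and shows no binding. The windows of 4 genes are shown as examples: Slc16a3 and Bnip3, both far lower in PBM T-like cells and both with matches, Tpi1, lower with no match, and Pdk1, higher with 1 match before the first of its 2 starts. Capitals mark the matches, and each is written 5′ to 3′ on the gene's strand.
Slc16a3, chr11:120948817-120949066, plus strand, 2 matches: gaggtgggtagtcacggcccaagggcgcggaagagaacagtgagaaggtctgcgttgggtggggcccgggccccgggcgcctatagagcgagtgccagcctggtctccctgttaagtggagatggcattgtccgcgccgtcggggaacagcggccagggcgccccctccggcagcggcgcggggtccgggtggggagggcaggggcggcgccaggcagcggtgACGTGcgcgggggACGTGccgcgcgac
Bnip3, chr7:138909507-138909756, minus strand, 5 matches: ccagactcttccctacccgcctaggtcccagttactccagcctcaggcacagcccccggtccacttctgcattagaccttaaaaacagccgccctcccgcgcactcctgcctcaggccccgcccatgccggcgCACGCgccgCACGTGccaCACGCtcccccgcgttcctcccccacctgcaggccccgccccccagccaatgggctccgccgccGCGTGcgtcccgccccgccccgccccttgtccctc
Tpi1, chr6:124814159-124814408, minus strand, 0 matches: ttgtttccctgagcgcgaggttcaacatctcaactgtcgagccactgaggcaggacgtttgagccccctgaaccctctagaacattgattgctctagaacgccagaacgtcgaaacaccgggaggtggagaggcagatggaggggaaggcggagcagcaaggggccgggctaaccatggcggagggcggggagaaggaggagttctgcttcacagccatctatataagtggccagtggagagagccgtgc
Pdk1, chr2:71872974-71873223, plus strand, 1 match: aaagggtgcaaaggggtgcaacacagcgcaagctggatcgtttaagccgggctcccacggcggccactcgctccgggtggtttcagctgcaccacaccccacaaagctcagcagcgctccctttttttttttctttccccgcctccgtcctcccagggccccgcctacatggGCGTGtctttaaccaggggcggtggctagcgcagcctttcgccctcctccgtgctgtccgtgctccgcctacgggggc

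In T-like cells almost the whole set was lower in the PBM library. A level is the summed UMIs of a gene in a population per 1000000 UMIs of that population, a gene counted as measured when the mean of both levels would give at least 10 UMIs in the smaller group, and a difference of 2-fold or more is counted. By this measure 24 of 30 members were lower in the PBM library, against 18.8% of the 12948 genes measured, and 1 was higher, against 5.31% of all genes. The median log2 ratio, PBM over control, was -1.74 for the 18 glycolysis members and -1.61 for the 12 measured hypoxia members, while the median of all genes was -0.21. Adm, which encodes the vasodilator peptide adrenomedullin, was not measured there, with 6 UMIs in PBM and 1 UMI in control T-like cells.

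**Figure D1:**
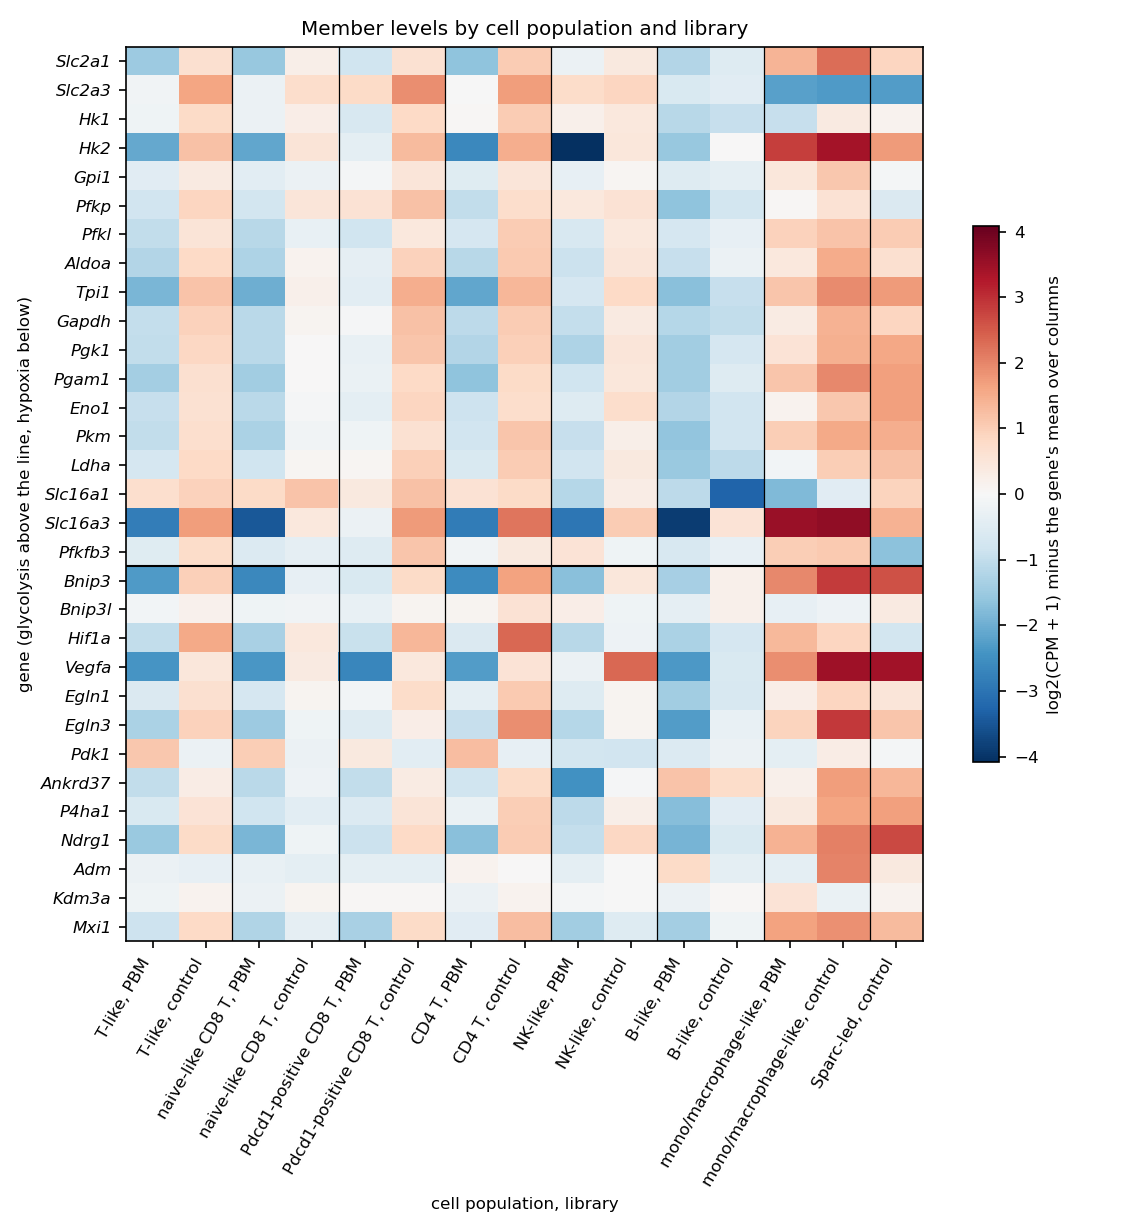
Level of each of the 31 genes in 7 cell populations, the PBM library to the left of the control library, and in the Sparc-led cells of the control library. Colour gives log2(CPM + 1) minus the mean of that gene over all columns, so rows cannot be compared in height; in T-like, CD4 T and NK-like cells the PBM columns are bluer than the control columns for most rows, with Pdk1 as the exception in T cells, and both monocyte/macrophage-like columns are the reddest for Slc16a3 and Hk2.

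At the entry of the pathway, the glucose transporter genes were both lower in PBM T-like cells. Slc2a1 had a level of 11.8 CPM (10.9 to 12.9) in PBM T-like cells and 56.3 CPM (52.6 to 60.1) in control T-like cells. Slc2a3, the high-affinity transporter of lymphocytes and neurons, had 18.4 CPM in PBM and 63.5 CPM in control T-like cells. Hk2, the inducible hexokinase that traps glucose in the cell, stood at 2.97 CPM in PBM T-like cells, against 37.7 CPM in control T-like cells, a log2 ratio of -3.67 (-3.94 to -3.40). Hk1, the housekeeping hexokinase, had 58.2 and 112 CPM in the PBM and control libraries, just inside 2-fold (log2 ratio -0.94).

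Each of the members from phosphofructokinase to lactate dehydrogenase was lower by more than 2-fold, while Pfkm and Ldhb, genes of the same steps outside the members, had log2 ratios of -0.30 and 1.82. Pfkp and Pfkl, phosphofructokinase subunits, had log2 ratios of -1.68 and -1.58, and the aldolase gene Aldoa had 315 CPM in PBM and 1259 CPM in control T-like cells. Tpi1, triose phosphate isomerase, had the largest difference of these enzymes, with 50.1 CPM (48.2 to 52.2) in PBM T-like cells, against 412 CPM (403 to 423) in control T-like cells, 8.23-fold lower. Gapdh had 616 CPM in PBM and 2299 CPM in control T-like cells (log2 ratio -1.90), Pgk1 had 134 and 488 CPM, Pgam1 80.5 and 333 CPM, Eno1 208 and 623 CPM, and Pkm 238 and 769 CPM, with the PBM level first. Ldha, which turns pyruvate into lactate, had 349.7 CPM in PBM and 981 CPM in control T-like cells. Gpi1, the isomerase step before phosphofructokinase, had 189.9 and 336 CPM in the PBM and control libraries, within 2-fold. Pfkfb3, which makes the activator of phosphofructokinase, had 10.1 CPM in PBM and 25.3 CPM in control T-like cells. Reads of Aldoa, Gapdh, Pgk1 and Eno1 can be shared with near-identical copies such as Aldoart1 and Eno1b, so their levels are uncertain to that extent.

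The lactate transporters parted. Slc16a3 encodes MCT4, the exporter of strongly glycolytic cells, and had 119 UMIs, or 2.50 CPM (2.07 to 3.00), in PBM T-like cells and 1246 UMIs, or 79.4 CPM (75.0 to 83.9), in control T-like cells. Its log2 ratio of -4.99 (-5.27 to -4.71) was the lowest of the glycolysis members. Slc16a1, which encodes MCT1, had 14.4 CPM in PBM and 17.7 CPM in control T-like cells, a log2 ratio of -0.30 that became 0.01 with the TMM scaling described with the processing.

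Among the hypoxia genes, Hif1a itself had 1663 UMIs in PBM T-like cells, with an interval of 33.3 to 36.7 CPM, and 211 CPM (204 to 218) in control T-like cells, 6.02-fold lower. Bnip3, a receptor for mitophagy, had 4.75 CPM in PBM and 54.7 CPM in control T-like cells, a log2 ratio of -3.52, while its relative Bnip3l had 81.4 and 101 CPM, a log2 ratio of -0.30 that likewise became 0.01. The hydroxylase genes Egln3 and Egln1, which encode PHD3 and PHD2, had log2 ratios of -2.73 and -1.26, Ndrg1 one of -2.45, and Mxi1, an antagonist of MYC, one of -1.78. Ankrd37 and P4ha1, the last a subunit of collagen prolyl hydroxylase, were lower by 2.71-fold and 2.34-fold. Kdm3a, a histone demethylase, had 13.5 CPM in PBM and 16.9 CPM in control T-like cells, inside 2-fold. Vegfa, the angiogenic growth factor, had 10 UMIs in PBM T-like cells, against 123 UMIs in control T-like cells (0.210 and 7.84 CPM). Free RNA in the droplets could supply 82.6% of that control level by the estimate described with the processing, so Vegfa gives no reading of T-like cells. For Slc16a3, Hk2 and Bnip3 the same estimate was 28.3%, 35.9% and 33.7% of the control level, and for Hif1a 6.64%.

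Pdk1, which encodes pyruvate dehydrogenase kinase 1 and restrains pyruvate entry into the mitochondria, went the other way. It had 77.7 CPM (75.2 to 80.3) in PBM T-like cells and 30.3 CPM (27.7 to 33.2) in control T-like cells, a log2 ratio of 1.36. The same direction was seen in each T cell gate, at 72.7 and 30.3 CPM in naive-like CD8 T cells, 47.1 and 26.1 CPM in Pdcd1-positive CD8 T cells and 87.3 and 28.5 CPM in CD4 T cells, PBM level first in each pair. Within single T clusters present in both libraries it was not seen beyond counting error: Pdk1 had 30.9 CPM in PBM and 32.8 CPM in control cells of the Klrg1-led cluster, a log2 ratio of -0.09 (-0.82 to 0.59), and 36.8 CPM in PBM and 30.6 CPM in control cells of the Cxcr6-led cluster, a log2 ratio of 0.27 (-0.53 to 0.97).

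The other genes of these pathways were read from wider lists. Of 20 measured genes of the tricarboxylic acid cycle, 0 were lower and 0 higher by 2-fold in PBM T-like cells, with a median log2 ratio of -0.24. Of 20 other measured glycolysis genes, 7 were lower and 2 higher (median -0.28): Aldoc, the brain-type aldolase, had a log2 ratio of -4.18, whereas Ldhb, the lactate dehydrogenase subunit of oxidative tissue, was higher with 22.3 CPM in PBM and 6.31 CPM in control T-like cells, and Pdk2 was higher with a log2 ratio of 1.46. Of 30 other measured hypoxia genes, 17 were lower and 0 higher (median -1.14), among them Bhlhe40 (-4.90), Plod2 (-4.48), Ero1l (-1.93), Higd1a (-1.38) and Ddit4 (-1.24). Arnt, the partner of HIF-1 alpha, had 19.4 CPM in PBM and 19.0 CPM in control T-like cells, and Egln2, the third hydroxylase, had 32.9 and 31.9 CPM. Myc, a driver of glycolysis in activated T cells, had 56.3 CPM in PBM and 47.3 CPM in control T-like cells, whereas Irf4, induced by T cell receptor signalling, had a log2 ratio of -1.65.

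Other measures differed between the T-like cells of the libraries as well. UMIs of at least 1 of 6 cell cycle genes were present in 15.5% of PBM and 32.4% of control T-like cells, and Foxp3 UMIs in 7.44% and 19.9%. The summed level of 12 monocyte and macrophage markers was 91.9 CPM in PBM and 1641 CPM in control T-like cells, with all 12 present in both. The count of lower members was 24 of 30 without the cells with cell cycle UMIs and 23 of 30 after subtraction of the estimated free RNA. With TMM scaling, which raised T-like ratios by 0.31 and moved the median of all genes to 0.10, it was 22 of 30. Shares of all genes under these alternatives are not given here.

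**Figure D2:**
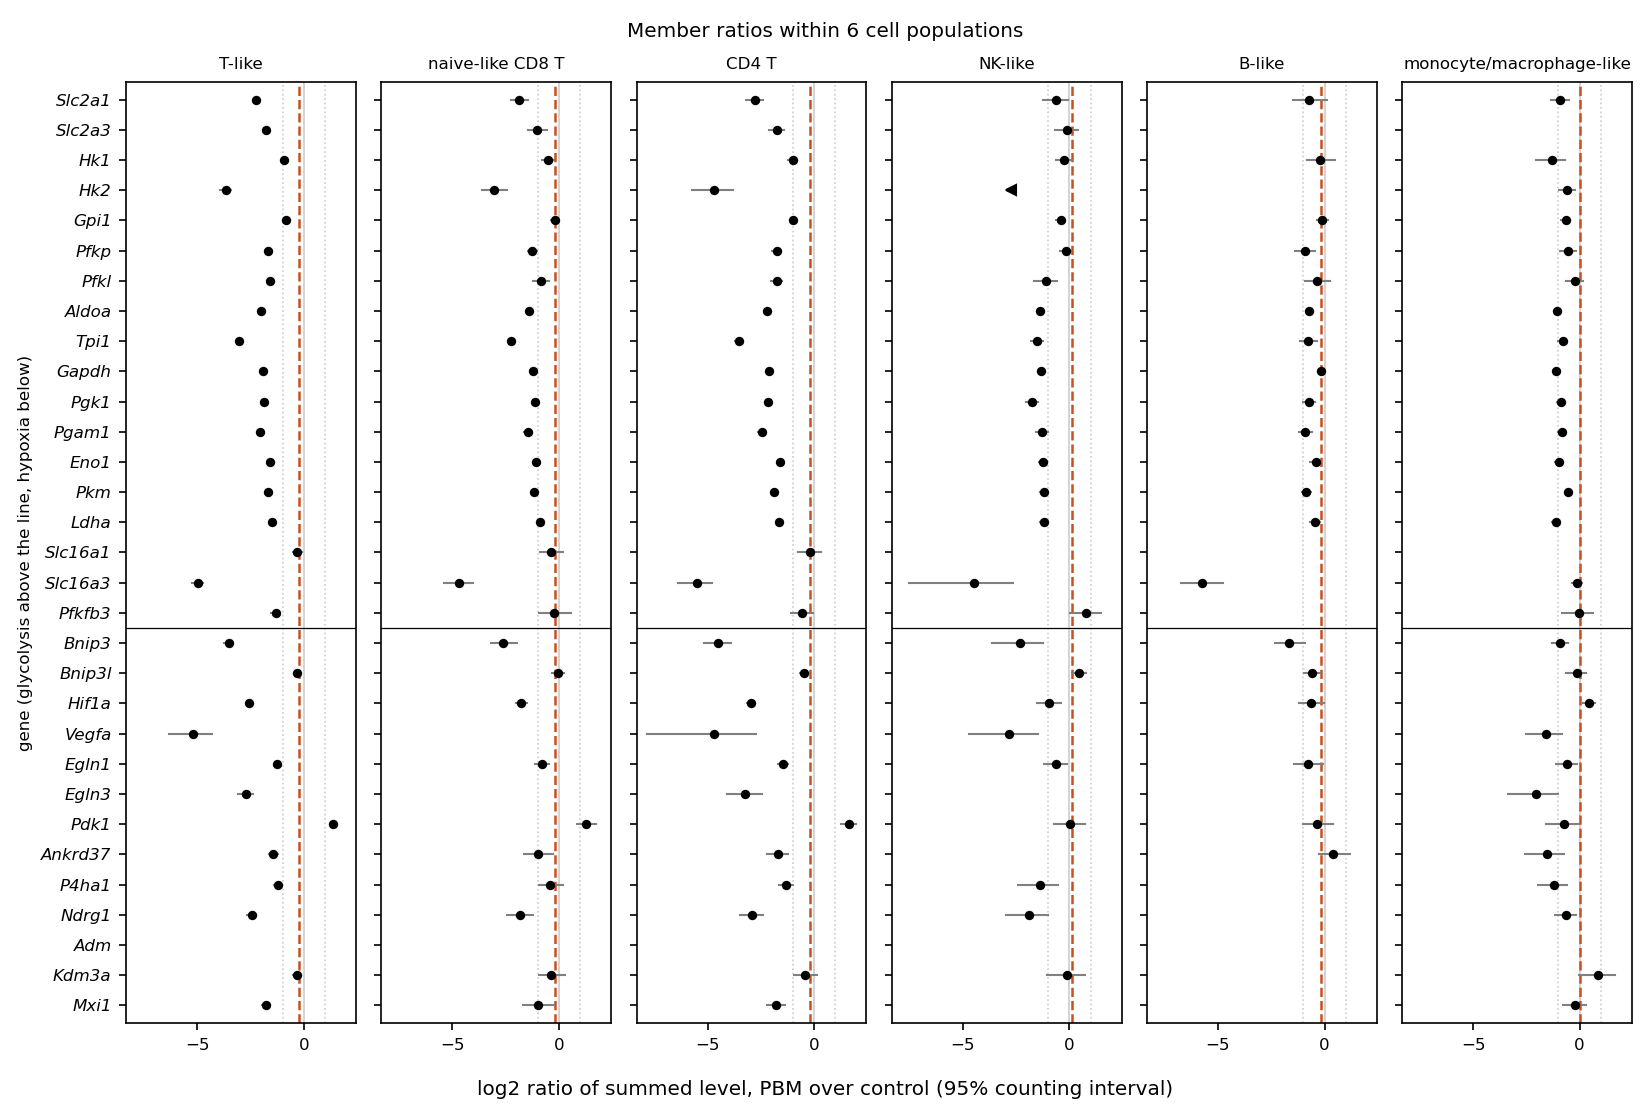
Log2 ratio of the level, PBM over control, for each measured member in 6 populations; bars are exact 95% counting intervals, the dashed line is the median of all genes, dotted lines mark 2-fold, and the arrowhead (Hk2 in NK-like cells) is an upper limit because the PBM cells had 0 UMIs. The points of T-like, naive-like CD8 T and CD4 T cells lie mostly left of the dotted line, those of B-like cells mostly right of it, and Pdk1 lies right of 0 in the T cell panels.

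The naive-like CD8 T cells, chosen with no Pdcd1 UMI and with UMIs of at least 2 of 7 naive markers, carried a smaller form of the same difference. Of 28 measured members 15 were lower in PBM cells, against 8.84% of all genes, and Pdk1 alone was higher, against 2.15% of all genes. Slc16a3 had 1.23 CPM in PBM and 32.3 CPM in control cells, but free RNA could supply 59.7% and 61.8% of these levels. Tpi1 had 44.8 CPM (42.3 to 47.5) in PBM and 211 CPM (188 to 235) in control naive-like CD8 T cells, Aldoa 299.6 and 793 CPM, Gapdh 564 and 1308 CPM, and Hif1a 27.8 and 94.9 CPM. Gpi1, Ldha, Bnip3l, P4ha1, Pfkfb3 and Kdm3a were inside 2-fold. With TMM scaling 9 of 28 members were lower, and 6 of 15 when each cell was thinned to 1000 UMIs, both given here without the share of all genes.

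Pdcd1-positive CD8 T cells, a gate that antigen-stimulated and exhausted cells enter, numbered 51 in the PBM library. Of 24 measured members 17 were lower in PBM than in control cells, against 9.15% of all genes, and 0 were higher, against 4.68%. Hif1a had 37.3 CPM (22.5 to 58.3) in PBM and 185 CPM (174 to 197) in control cells, Slc16a3 19.6 and 82.2 CPM, Tpi1 136 and 519 CPM, and Gapdh 1159 and 2744 CPM. Pkm, Ldha, Pfkp and Gpi1 were within 2-fold. Intervals lay wholly past 2-fold for 7 members, and without the clusters led by Dapl1 and Klrg1 the count of lower members was 8. Both counts are given here without the share of all genes.

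Within a library the Pdcd1-positive cells stood above the naive-like cells. In the control library 9 of 29 measured members were higher by 2-fold, against 5.18% of all genes, and 0 were lower, against 4.28%. They were Slc2a3, Tpi1, Gapdh, Pgk1, Slc16a3, Pfkfb3, Bnip3, Ndrg1 and Mxi1, and the median of all 29 members was 0.79, that of all genes 0.05. Pfkfb3 had the largest ratio, with 33.4 CPM in Pdcd1-positive and 11.2 CPM in naive-like cells. In the PBM library 6 of 17 were higher, against 4.83% of all genes, and 0 lower, against 0.961%: Tpi1 had 136 CPM in Pdcd1-positive and 44.8 CPM in naive-like cells, Pfkp 161 and 62.4 CPM, and Pkm 428 and 194 CPM. The PBM count was 2 of 17 with TMM scaling, 2 of 6 in thinned cells, 2 of 15 without cells with cell cycle UMIs, and 2 of 17 with intervals wholly past 2-fold. Shares of all genes under these settings are not given here, so these counts are not set against a background. A gate on a Pdcd1 UMI takes deeper cells, with medians of 8971 UMIs in Pdcd1-positive and 6486.5 UMIs in naive-like PBM cells and of 7271 and 5562 UMIs in control cells. Slc16a3, at 10 UMIs, and Bnip3, at 9 UMIs, were not measured in that comparison. Across the 4 groups, Gapdh was ordered from naive-like PBM cells at 564 CPM through Pdcd1-positive PBM cells at 1159 CPM and naive-like control cells at 1308 CPM to Pdcd1-positive control cells at 2744 CPM, and the intervals of the middle groups just met (1067 to 1256 and 1251 to 1367 CPM).

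CD4 T cells showed the largest differences. Of 30 measured members 24 were lower in PBM cells, against 16.5% of all genes, and Pdk1 was higher, against 5.0% of all genes. Slc16a3 had 2.40 CPM (1.34 to 3.96) in PBM and 110.5 CPM (98.8 to 123) in control CD4 T cells, Hk2 1.76 and 46.1 CPM, Bnip3 3.84 and 88.4 CPM, Tpi1 41.0 and 472 CPM, and Hif1a 46.9 and 363 CPM. Foxp3, the marker of regulatory T cells, had UMIs in 11.6% of PBM and 42.6% of control CD4 T cells. Among CD4 T cells with no Foxp3 UMI, 23 of 29 measured members were lower, against 13.1% of all genes. In the control library the cluster led by Klrg1, Tnfrsf4 and Foxp3 had the highest Hif1a level of the 13 control clusters with at least 50 cells, 372 CPM (350.1 to 394), and the highest Ldha level, 1328 CPM (1287 to 1370). The interval of Ldha there overlaps that of the Sparc-led cells, at 1281 CPM (1266 to 1296).

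In NK-like cells 15 of 26 measured members were lower in the PBM library, against 4.99% of all genes, and 0 were higher, against 5.67%. The median of the members was -1.19, and that of all genes 0.13. Hk2 had 0 UMIs in 198 PBM cells, and 22.3 CPM in control cells. With the zero set to 3 counts, or 3.30 CPM, it was 6.76-fold lower, a value that rests on this floor and is no bound. The 95% interval of its log2 ratio ended at -2.45. Slc16a3 had 2 UMIs in PBM NK-like cells and 478 UMIs, or 49.3 CPM, in control NK-like cells, a log2 ratio of -4.49 with an interval from -7.54 to -2.63. Free RNA could supply 56.6% of the control level of Hk2 and 42.5% of that of Slc16a3 in these cells. The lower part of the pathway differed by similar amounts: Aldoa, Tpi1, Gapdh, Pgk1, Pgam1, Eno1, Pkm and Ldha had log2 ratios between -1.76 and -1.19. Gapdh had 611 CPM (561 to 664) in PBM and 1545 CPM (1521 to 1570.2) in control NK-like cells, and Ldha 324 and 742 CPM. The upper part was mixed: besides Hk2, Pfkl was lower, with 33.0 CPM in PBM and 70.6 CPM in control cells, and Slc2a1 and Gpi1 had log2 ratios of -0.64 and -0.41. Slc2a3 had 35.2 CPM in PBM and 37.8 CPM in control cells, Hk1 74.7 and 88.2 CPM, and Pfkp 142 and 159.5 CPM. Of 9 measured hypoxia members 4 were lower: Vegfa, Bnip3, Ndrg1 and P4ha1, with log2 ratios of -2.83, -2.30, -1.91 and -1.40. Vegfa had 4 UMIs and Bnip3 7 UMIs in PBM cells, and free RNA could supply 45.3% of the control level of Bnip3. Pfkfb3 and Bnip3l were higher, inside 2-fold, with log2 ratios of 0.79 (0.03 to 1.48) and 0.46 (0.14 to 0.77), the last of which was -0.19 with called doublets kept. Cell cycle UMIs were present in 19.7% of PBM and 31.1% of control NK-like cells, and macrophage markers summed to 96.7 and 1348 CPM.

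B-like cells differed least. Of 20 measured members 2 were lower, against 5.43% of all genes, and 0 were higher, against 1.23%, a share of the members near that of all genes. These were Slc16a3, with 0.655 CPM in PBM and 35.3 CPM in control B-like cells, and Bnip3, with 10.2 and 32.0 CPM. Free RNA could supply 69.0% and 62.2% of the control levels of these genes, and after its subtraction 0 members were lower by 2-fold. Gapdh had 537 CPM in PBM and 596 CPM in control B-like cells, Gpi1 181 and 196 CPM, and Hk1 29.4 and 33.7 CPM, and each of these ratios changed sign with TMM scaling (0.13, 0.17 and 0.08). Other members were lower inside 2-fold with intervals below 0. Among them Pfkp had a log2 ratio of -0.93 (-1.39 to -0.43) and Pgam1 one of -0.91 (-1.21 to -0.59). Pkm had -0.86 (-1.07 to -0.63) and Aldoa -0.71 (-0.86 to -0.56). Free RNA could supply 30.8%, 57.6%, 54.9% and 33.9% of the control levels of these genes, in the same order. Tpi1 had 55.9 CPM in PBM and 94.5 CPM in control B-like cells, and free RNA could supply 15.6% and 80.1% of these levels. For Gapdh these parts were 17.0% in PBM and 57.6% in control cells, and subtraction of parts this unequal turns both ratios positive. Before subtraction or TMM scaling, Ankrd37 alone of the measured members was higher in PBM B-like cells. It had 38.5 CPM (1057 UMIs) in PBM and 28.8 CPM (18 UMIs) in control B-like cells. Its log2 ratio of 0.42 had an interval, -0.25 to 1.18, that holds 0.

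Monocyte/macrophage-like cells, the main population of the control library, were few in the PBM library. Of 28 measured members 8 were lower in PBM cells, against 5.89% of all genes, and 0 were higher, against 6.18%: Hk1, Aldoa, Gapdh, Ldha, Vegfa, Egln3, Ankrd37 and P4ha1. Gapdh had 1500.2 CPM (1401 to 1605) in PBM and 3223 CPM (3207 to 3238) in control cells, and Egln3 had 12.4 CPM from 7 UMIs in PBM and 51.5 CPM in control cells. Of the genes with large T cell differences, Slc16a3 had 281 CPM (239 to 328) in PBM and 302 CPM (297 to 307) in control cells, Hk2 119 and 178 CPM, and Bnip3 110.2 and 207 CPM, PBM level first. Hif1a was higher in PBM cells, with 179.5 CPM (146 to 218), against 132 CPM (129 to 135) in control cells, a log2 ratio of 0.45 that was 0.22 without the sub-cluster named next and 0.08 at the finer clustering. The PBM cells had a median of 2228.5 UMIs and the control cells 7009, B cell markers summed to 1095 CPM in PBM and 17.6 CPM in control cells, and 51 of the 168 PBM cells belonged to a sub-cluster led by B cell genes. Without that sub-cluster 15 members were lower, a count given here without its number of measured members or the share of all genes.

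In 6 pairs of related genes the share of the pair's UMIs taken by the first gene does not depend on scaling. Free RNA can still shift these shares, as it could supply unequal parts of the genes of a pair. In control T-like cells it could supply 28.3% of Slc16a3 and 7.07% of Slc16a1, and 35.9% of Hk2 and 9.13% of Hk1. Bnip3 and Egln3 likewise had the larger part of their pairs there, Pfkp and Slc2a3 the smaller. In PBM T-like cells Slc16a3 and Hk2 had the larger part too. Shares after subtraction of free RNA are not given here. Slc16a3 took 14.8% (12.4 to 17.4) of the UMIs of Slc16a3 and Slc16a1 in PBM T-like cells and 81.8% (79.7 to 83.7) in control T-like cells. Hk2 took 4.85% (4.10 to 5.69) of hexokinase UMIs in PBM and 25.2% (23.4 to 27.0) in control T-like cells. Bnip3 took 5.52% of the UMIs of Bnip3 and Bnip3l in PBM and 35.2% in control T-like cells, and Egln3 took 5.39% of the UMIs of Egln3 and Egln1 in PBM and 13.7% in control T-like cells. Pfkp took nearly equal shares of the UMIs of Pfkp and Pfkl, 70.5% (69.0 to 71.9) in PBM and 71.9% (70.6 to 73.3) in control T-like cells. In monocyte/macrophage-like cells the shares were 99.4% and 98.1% for Slc16a3 and 77.9% (67.7 to 86.1) and 67.8% (67.1 to 68.6) for Hk2, PBM first. Bnip3 and Egln3 took smaller shares in PBM cells there, with 61.4% (51.2 to 70.9) in PBM and 73.0% (72.2 to 73.7) in control cells for Bnip3 and 16.7% (6.97 to 31.4) in PBM and 35.2% (34.1 to 36.3) in control cells for Egln3. Slc2a3 parted the lineages in both libraries: it took 60.8% of the transporter pair in PBM and 53.0% in control T-like cells, but 3.70% (0.452 to 12.7) in PBM and 1.85% in control monocyte/macrophage-like cells.

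**Figure D3:**
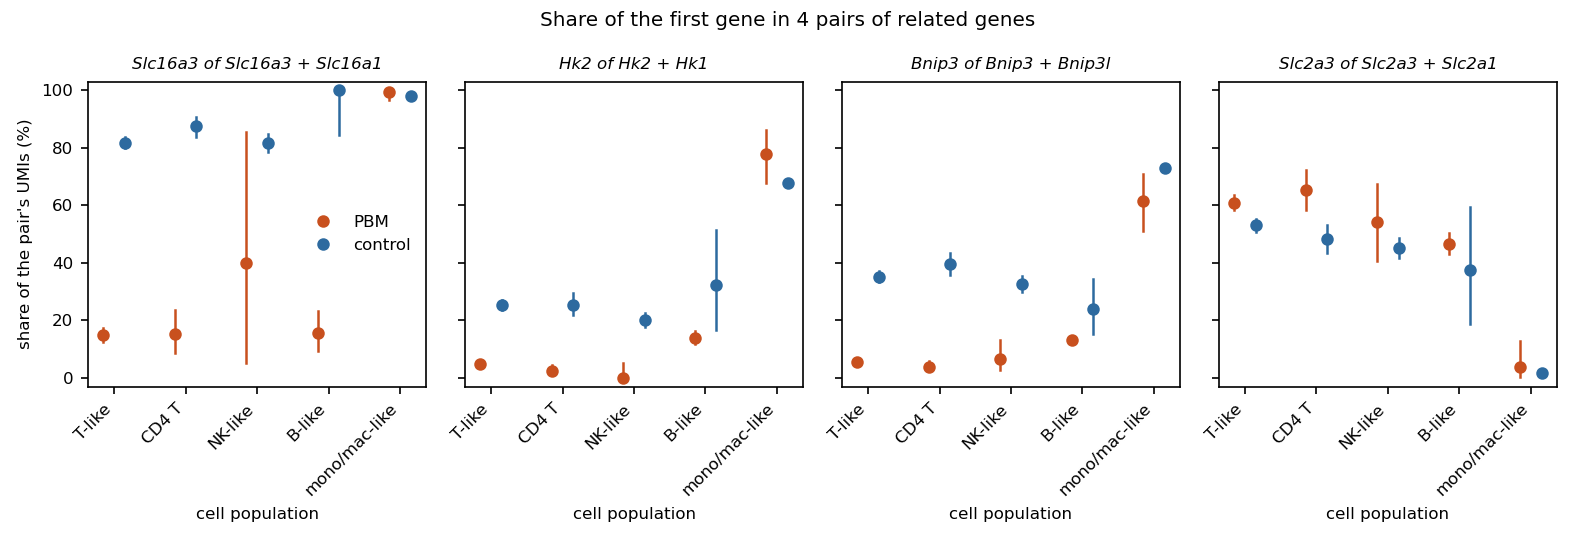
Share of the UMIs of a gene pair that fell on the first gene, in %, for 5 populations in the PBM library (left point) and the control library (right point), with exact 95% binomial intervals. In lymphocytes the PBM shares of Slc16a3, Hk2 and Bnip3 lie below the control shares, though in NK-like cells the PBM share of Slc16a3 rests on 5 UMIs. In control B-like cells these shares rest on 22, 31 and 84 UMIs. Free RNA could supply 69.0% of Slc16a3, 91.4% of Hk2 and 62.2% of Bnip3 in those control cells. The Slc2a3 share is low in monocyte/macrophage-like cells of both libraries.

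The classes compared above hold different cell states in the 2 libraries, so the members were also read within single clusters that had at least 50 cells in each library, a comparison added after the data were seen. There were 7 such clusters. In the cluster led by Klrg1, Tnfrsf4 and Foxp3, with 95 PBM and 574 control cells, 12 of 28 measured members were lower in PBM cells, against 5.84% of all genes, and 0 were higher, against 3.97%, with Hif1a at 135 CPM in PBM and 372 CPM in control cells, Slc16a3 at 47.8 and 147 CPM, and Slc2a3 at 68.9 and 59.5 CPM. In the cluster led by Cxcr6, Cxcr3 and Cd4, 5 of 22 were lower, against 4.78%, and 0 were higher, against 3.73%, with Hif1a at 30.7 CPM in PBM and 154 CPM in control cells. In the unnamed cluster led by Cd209a and Clec10a, genes of dendritic cells, 15 of 21 were lower, against 8.35%, and 0 were higher, against 10.0%, with Gapdh at 565 CPM in PBM and 1531 CPM in control cells. The NK-like class was 1 cluster, with the values given above.

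The remaining clusters were of macrophages, monocytes and B cells. In the cluster led by Nos2, Clec5a and Arg1, 63 PBM and 2393 control cells, 0 of 23 measured members were lower, against 3.34%, and Hif1a was higher, against 5.34% of all genes, with 308 CPM in PBM and 153 CPM in control cells. Tpi1 had 686 CPM in PBM and 778 CPM in control cells of that cluster, Slc16a3 476 and 354 CPM, and Bnip3 214 and 195 CPM. In the cluster led by Ace and Adgre4, genes of nonclassical monocytes, 2 of 18 were lower, against 4.53%, namely Hk1 and Slc2a1, and 0 were higher, against 2.88%. In the B cell cluster led by Iglc1, 2 of 18 were lower, against 5.2%, namely Slc16a3 and Egln1, and 0 were higher, against 2.12%. Over the processing alternatives the counts of lower members ran from 5 to 18 in the Cd209a-led cluster, 6 to 19 in the NK cluster, 4 to 19 in the Klrg1-led cluster, 1 to 13 in the Cxcr6-led cluster, 1 to 8 in the Iglc1-led cluster, 0 to 7 in the Ace-led cluster and 0 to 5 in the Nos2-led cluster. The numbers of measured members and the shares of all genes under these alternatives are not given here. The ranges are therefore not set against a background.

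**Figure D4:**
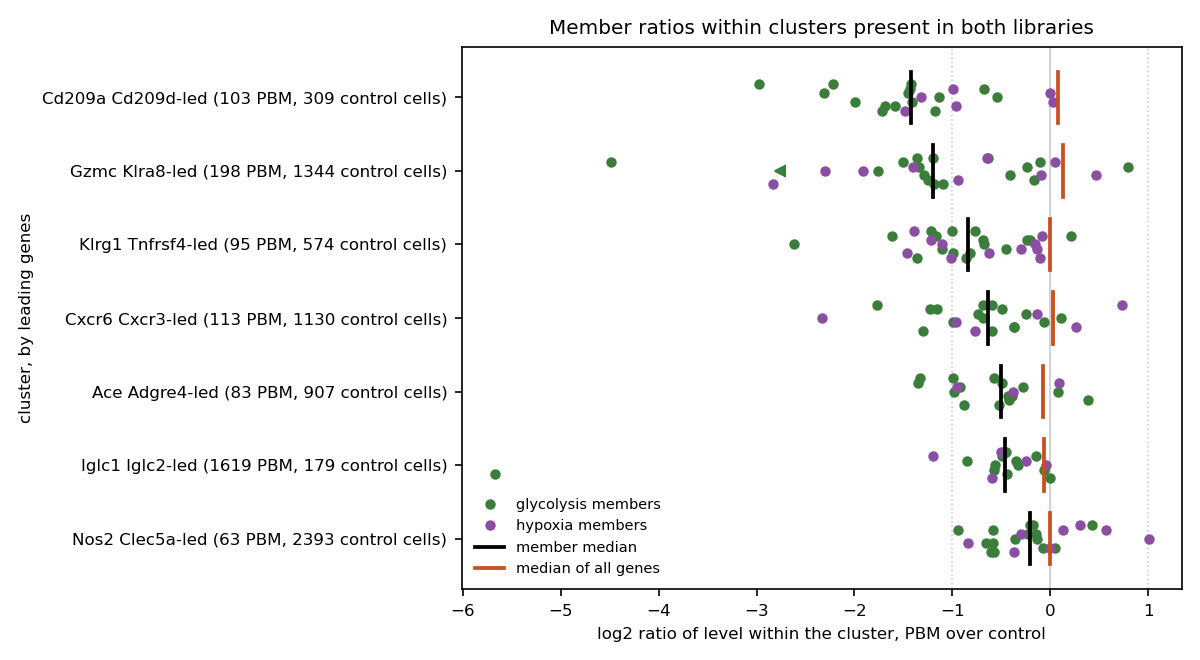
Log2 ratio of the level, PBM over control, of each measured member within the 7 clusters that had at least 50 cells in each library, with a point per gene; black bars are member medians, orange bars the medians of all genes, and the arrowhead is Hk2 in NK cells, an upper limit. The member median runs from -1.42 in the Cd209a-led cluster to -0.21 in the Nos2-led cluster, and every member median lies left of the median of all genes.

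The macrophages of the control library differed among themselves. The sub-cluster led by Gpnmb, of 368 cells, had the highest levels of 7 members among the 14 sub-clusters with at least 50 cells: Bnip3 402 CPM (382 to 423), Ndrg1 254 CPM (238 to 271), Vegfa 139.7 CPM (128 to 152), Egln3 99.0 CPM (89.0 to 109.9), Slc2a1 311 CPM (293 to 329.5), Ankrd37 129 CPM (118 to 141) and Adm 24.5 CPM (19.6 to 30.2). How many of all genes were highest in this sub-cluster is not given here, so the count of 7 is not set against a background. The intervals of Egln3 and Vegfa there overlapped those of the sub-cluster led by Malat1, at 84.2 CPM (73.5 to 95.9) and 115 CPM (upper bound 129). Its Hif1a level was not high, at 99.3 CPM, against 239 CPM (225 to 253) in the inflammatory macrophages led by Ly6i and 206 CPM (183 to 230.3) in the classical monocytes. The enzymes peaked elsewhere, with Gapdh at 4087 CPM (4049 to 4126) in the sub-cluster led by Cxcl3 and 4048 CPM (3961 to 4137) in that led by Ccl24, whose intervals overlap. Nonclassical monocytes led by Ace were lowest for Gapdh, at 766 CPM (723 to 810.2), and had 40.5 CPM of Bnip3.

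Inflammatory macrophages, led by Ly6i, were set against resident-like macrophages, led by Cbr2, in the control library. Of 31 measured members 3 (9.68%) were higher by 2-fold, against 6.43% of all genes, and 1 (3.23%) lower, against 10.2%. The share of higher members lay near that of all genes, and the share of lower members below it. Hif1a had 239 CPM in inflammatory and 83.7 CPM in resident-like macrophages, Pfkp 229.8 and 100.2 CPM, and Slc2a3 15 and 9 UMIs, of which free RNA could supply 58.2% in inflammatory and 100% in resident-like macrophages, so Slc2a3 gives no reading here. Adm had 1 UMI in inflammatory and 35 UMIs in resident-like macrophages, a log2 ratio of -4.72 (-10.06 to -2.15). The enzymes of the lower pathway hardly differed, with log2 ratios of 0.10 for Gapdh and 0.08 for Ldha.

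**Figure D5:**
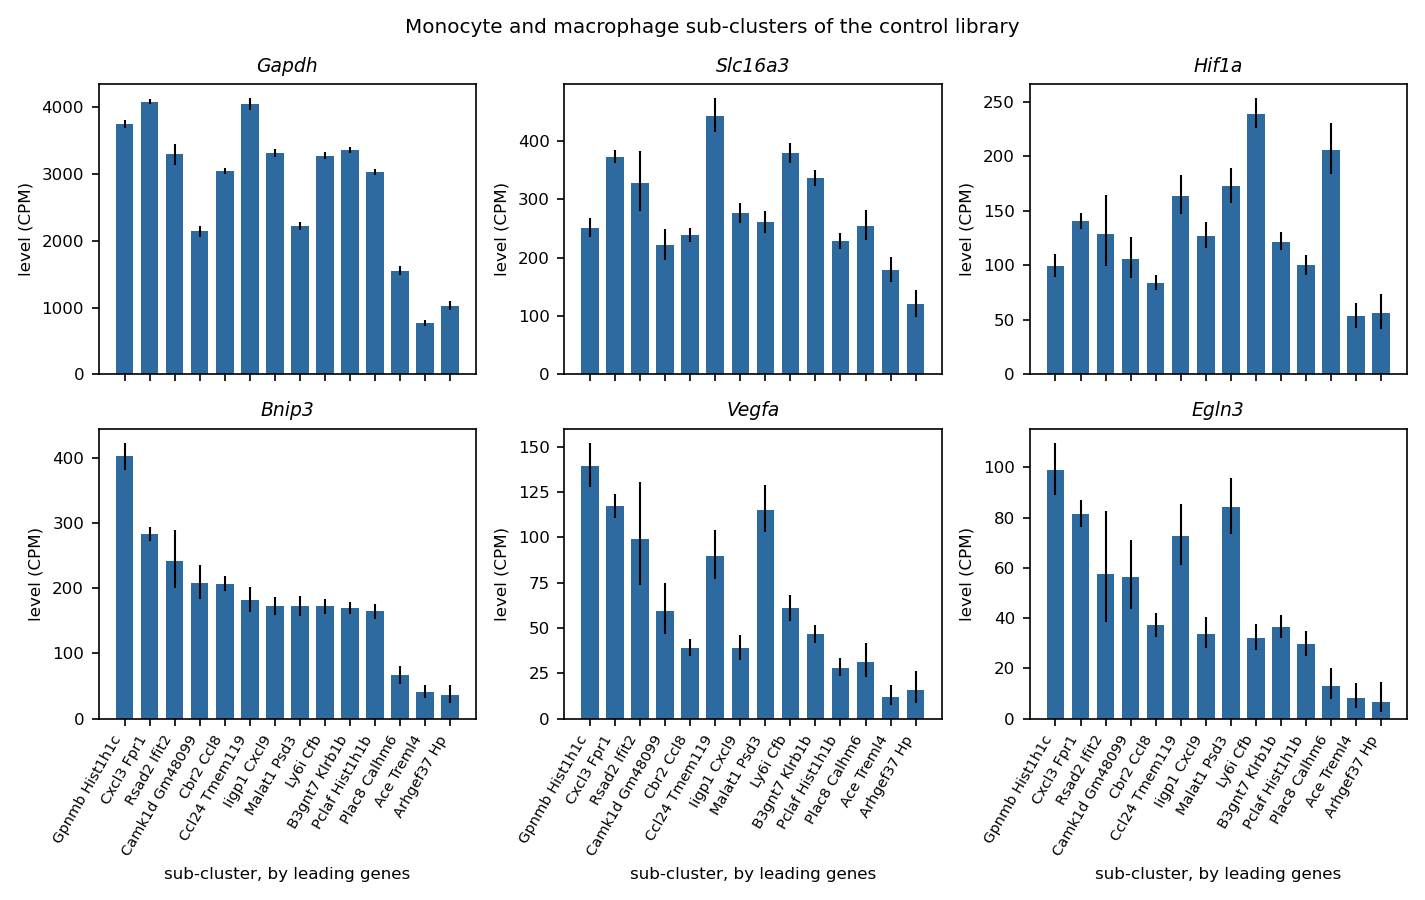
Level in CPM of 6 members in the 14 monocyte and macrophage sub-clusters of the control library with at least 50 cells, named by leading genes and ordered by Bnip3; bars start at 0 and black lines are exact 95% Poisson intervals. Bnip3, Vegfa and Egln3 are highest in the Gpnmb-led sub-cluster, Hif1a is highest in the Ly6i-led one, and Gapdh is highest in the Cxcl3-led and Ccl24-led ones.

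The Sparc-led cells of the control library, of low Ptprc, were set against the monocyte/macrophage-like cells. Of 31 measured members 9 were lower, against 16.9% of all genes, and 1 was higher, against 29.1%. Slc16a1 was the higher one, with 17.1 CPM in Sparc-led and 5.97 CPM in monocyte/macrophage-like cells. Slc16a3 was lower, with 65.4 and 302 CPM in the same order, as were Pfkfb3 (3.84 and 31.4 CPM) and Hif1a (42.1 and 132 CPM). Eno1 had 1291 CPM in Sparc-led and 863 CPM in monocyte/macrophage-like cells, and Vegfa 68.5 and 69.8 CPM. Scaling by TMM lowered these ratios by 0.39 and moved the median of all genes from 0.35 to -0.03.

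Across clusters most members followed each other. Over the 13 control clusters with at least 50 cells, the log2 level of Tpi1 had a Pearson correlation of 0.95 with the mean of the other members, Pkm 0.94, Pgam1 0.92 and Aldoa 0.92. These clusters share 1 library, its free RNA and its scaling, so the values describe these data only. In the control library Bnip3l (0.00), Pfkfb3 (-0.01) and Slc2a3 (-0.11) had the lowest values. Over the 15 PBM clusters Slc2a3 (-0.44), Pdk1 (-0.19), Adm (-0.16), Slc16a1 (-0.09) and Ankrd37 (-0.04) were below 0, while Pfkfb3 had 0.67 there and Pdk1 had 0.51 in the control library. Pfkfb3 was highest in the control dendritic cells led by Ccl22, at 158.7 CPM (135 to 186), and, among PBM clusters, in the Nos2-led macrophages, at 41.1 CPM. Slc2a3 was highest in the control neutrophils led by S100a9, at 102 CPM from 20 UMIs. Bnip3l was highest in the control cluster led by Klrg1, at 127 CPM (114 to 140.4), which overlaps the Sparc-led cells at 114 CPM (109 to 118). Pdk1 was highest in the PBM T cells led by Gm12840 and Cd40lg, at 108 CPM, and, among control clusters, in the macrophages led by Ccl8 and Folr2, at 50.6 CPM. The 71 control neutrophils also had the highest Egln3 level, 209 CPM (149.7 to 283), and the highest Pfkp level, 336 CPM.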

How the data were processed

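CD45-sorted cells of MC38 tumours were measured in 1 PBM and 1 control library. The deposited counts are UMIs per gene and cell; per the submitters' processing notes Cell Ranger 7.2.0 and mm10 were used, while the file headers name PISA 0.12. Cells with at least 500 UMIs, 200 genes and at most 10% mitochondrial UMIs were kept (1 PBM and 11 control barcodes removed), and Scrublet doublets were removed (899 of the PBM barcodes, 6.44%, and 128 of the control barcodes, 1.14%). The expected doublet rates were 11.2% for the PBM and 8.98% for the control library, so the calls fell further short in the control library. Doublets left uncalled can carry RNA of other cell types, and their effect on the levels was not tested. The libraries share 1991 barcode names.

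Cells were clustered with scanpy 1.11.5 (2000 variable genes without the 31 members, 30 components, 15 neighbours, resolution 1.0) and named from marker lists; Ccr9 and Itgae were not held against the T name, and sub-clusters needed 2 of their own markers among 10 leading genes, both set after the data were seen. Levels are summed counts per 1000000 UMIs (CPM) with exact Poisson 95% intervals; ratios have exact conditional binomial intervals and shares Clopper-Pearson ones. All cover counting error only. A zero was set to 3 counts per population. Free RNA was estimated as the median level, relative to the whole library, of other cell types' markers at 20 CPM or more in that library. TMM scaling used edgeR 4.0.16. No difference between libraries was tested. Alternatives covered clustering resolution, doublets, scaling, depth, free RNA, cell cycle, filters and fold. Levels, ratios and intervals were checked on simulated data.

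All 31 members may be named in any comparison, and other genes only as markers or from the wider pathway lists. The members and lists were chosen with earlier results of these data known.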

Additional observations from a re-analysis of the deposited data

Results flagged for a closer look

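For 4 genes the log2 ratio, PBM over control, had opposite signs in different cell classes, with intervals that did not hold 0. With 1 library per group the difference between classes was not tested. Pfkfb3 was higher in PBM NK-like cells (0.79, from 20 PBM UMIs) and lower in PBM T-like cells (-1.32). Its NK-like interval began at 0.03, and TMM scaling shifted NK-like ratios by -0.18, so that the interval then holds 0. Bnip3l was higher in PBM NK-like cells (0.46) and lower in PBM T-like (-0.30) and B-like cells (-0.60); the NK-like ratio was -0.19 with called doublets kept and the T-like ratio 0.01 with TMM scaling, so these signs turn. Hif1a was higher in PBM monocyte/macrophage-like cells (0.45) and lower in PBM T-like (-2.59), NK-like (-0.94) and B-like cells (-0.63); the first of these was 0.08 at resolution 2.0 and 0.22 without the sub-cluster led by B cell genes. Pdk1 was higher in PBM T-like cells (1.36) and lower in PBM monocyte/macrophage-like cells (-0.73).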

How the results depend on the processing

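No paired analysis was possible because each group is 1 library. Counts under the alternatives below are given without the share of all genes under the same setting, so they are not set against a background. Counts of members lower in PBM cells stayed within 1.5 times of the reported 24 under every alternative in T-like cells (22 to 26) and CD4 T cells (21 to 25). Thinning each cell to 1000 UMIs left 6 in naive-like CD8 T cells, 7 in Pdcd1-positive CD8 T cells, 6 in NK-like cells and 5 in monocyte/macrophage-like cells, with fewer members measured (15, 9, 14 and 20). It also gave 2 higher in Pdcd1-positive against naive-like PBM cells and 1 in inflammatory against resident-like macrophages. TMM scaling gave 9 in naive-like CD8 T cells and 2 higher in Pdcd1-positive against naive-like PBM cells. Subtracting free RNA gave 11 in Pdcd1-positive CD8 T cells, 0 in B-like cells and 16 higher in Pdcd1-positive against naive-like control cells. Leaving out cells with cell cycle UMIs gave 4 in B-like cells and, for Pdcd1-positive against naive-like cells, 2 higher in the PBM and 14 in the control library. A filter of 3 expected UMIs gave 10 higher in Pdcd1-positive against naive-like PBM cells and 6 lower in B-like cells, and no filter 11 and 8. Counting 1.5-fold gave 12 lower in B-like and 18 in monocyte/macrophage-like cells, 11 higher in the PBM and 21 in the control library for Pdcd1-positive against naive-like cells, 2 in Sparc-led cells and 5 in inflammatory macrophages. Requiring intervals wholly past 2-fold gave 7 in Pdcd1-positive CD8 T cells, 1 in B-like cells, 2 in monocyte/macrophage-like cells, and 2 higher in Pdcd1-positive against naive-like cells of either library. Resolution 2.0 gave 14 in monocyte/macrophage-like cells and resolution 0.5 gave 1 in inflammatory macrophages. Added after seeing the data, leaving out the sub-cluster led by B cell genes gave 15 in monocyte/macrophage-like cells, and leaving out the T clusters led by Dapl1 and Klrg1 gave 8 in Pdcd1-positive CD8 T cells. The cause was not tested. With 1 library per group, treatment, pool and library cannot be told apart, and small classes (51 PBM Pdcd1-positive CD8 T, 168 PBM monocyte/macrophage-like and 198 PBM NK-like cells) limit what depth can show.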
